A study of Mus musculus with 9 samples.

Results

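The hexosamine pathway and O-GlcNAc enzymes are 8 genes here, chosen by symbol for their place in the pathway: Gfpt1, Gfpt2, Gnpnat1, Pgm3, Uap1, Ogt, Nagk and Gne. They are 8 of the 55487 genes in the deposited gene table, and all 8 were among the 21049 genes with enough counts to be tested. Retinas of wild-type mice (C57BL/6J, postnatal day 28) were cultured as explants and used for RNA-seq. Control explants (5 libraries) were kept for 48 h in Neurobasal-A medium with 5 mM glucose, and 2-DG explants (4 libraries) had 20 mM 2-DG added to that medium. The paper describes a further 1 h in Krebs' Ringer medium after culture, and says that retinas for RNA-seq were processed immediately. Whether that was before or after this hour is not stated. 2-DG (2-deoxy-D-glucose) is a glucose analog that hexokinase phosphorylates but that cannot pass on through glycolysis. The comparison asks which retinal transcripts differ after 2-DG, which was used to block glycolysis. The paper warns that 2-DG may act more broadly on metabolism and that cell death was not analysed. Blocked glycolysis and such other effects cannot be told apart in this design. The libraries hold RNA of the whole neural retina after removal of the sclera and retinal pigment epithelium, so fewer cells of a type and less RNA per cell cannot be told apart in any value below. The labels call the libraries biological replicates of 1 batch without naming the animal behind each, and the sex of the mice is not given in the labels used here.

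The hexosamine pathway branches from glycolysis at fructose 6-phosphate and makes UDP-GlcNAc, the sugar donor for N-glycans, for sialic acid and for O-GlcNAc, a single sugar that OGT places on serine and threonine of nuclear and cytosolic proteins and that OGA removes. The amidotransferases encoded by Gfpt1 and Gfpt2 perform the entry step and set the flux. Gnpnat1 acetylates the product, Pgm3 moves its phosphate, and Uap1 attaches UDP, while Nagk returns salvaged GlcNAc to the pathway and Gne takes UDP-GlcNAc into sialic acid synthesis. Spliced XBP1, a transcription factor of the unfolded protein response, is known to activate Gfpt1, Gnpnat1 and Pgm3 in other tissues, whereas Uap1, Ogt, Nagk and Gne are not usually counted among its targets. Photoreceptors, the most numerous cells of the retina, are known for a high rate of glycolysis.

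Because the steps differ in their link to XBP1, the promoters of the paralogs Gfpt1 and Gfpt2 and of Pgm3 are shown first. Each is the 250 bases before the start of the gene in RefSeq (GRCm38.p6), 5′ to 3′ on the strand of the gene. Capitals mark, on either strand, the pentamers CCACG and CCAAT as well as the XBP1 hexamer ACGTGG. The Gfpt1 promoter lies at chr6:87042596-87042845 on the plus strand, that of Gfpt2 at chr11:49793905-49794154 on the plus strand and that of Pgm3 at chr9:86571843-86572092 on the minus strand.
Gfpt1: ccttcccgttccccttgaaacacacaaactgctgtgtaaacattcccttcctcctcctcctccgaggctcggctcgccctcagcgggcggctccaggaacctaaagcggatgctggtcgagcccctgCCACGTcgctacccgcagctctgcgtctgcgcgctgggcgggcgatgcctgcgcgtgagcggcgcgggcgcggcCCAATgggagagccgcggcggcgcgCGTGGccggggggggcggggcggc
Gfpt2: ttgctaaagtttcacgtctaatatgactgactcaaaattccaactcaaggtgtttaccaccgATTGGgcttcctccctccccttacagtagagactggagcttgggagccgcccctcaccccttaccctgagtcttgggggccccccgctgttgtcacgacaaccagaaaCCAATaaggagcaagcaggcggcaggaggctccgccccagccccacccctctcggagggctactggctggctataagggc
Pgm3: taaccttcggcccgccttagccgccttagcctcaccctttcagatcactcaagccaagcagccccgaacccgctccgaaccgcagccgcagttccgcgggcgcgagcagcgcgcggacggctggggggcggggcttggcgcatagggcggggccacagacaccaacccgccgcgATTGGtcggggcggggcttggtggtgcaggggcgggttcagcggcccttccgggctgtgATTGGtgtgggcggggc

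RefSeq promoters of 300 bases, from 250 before to 50 after the start, were found for 7 of the 8 genes, all except Gnpnat1, and were searched on both strands for letters known from the unfolded protein response. ACGTGG, the core of the XBP1 element UPRE, stood in Gfpt1, 123 bases before the start, and in Pgm3, 24 bases after it, and in no promoter of the other 5 genes. This hexamer was present in 8.31% of the 32851 promoters in RefSeq. On the strand of the gene it reads as its reverse complement, which begins with CCACG. The stretches around it, with CCACG in capitals, are given for Gfpt1 at chr6:87042713-87042737 and for Pgm3 at chr9:86571805-86571829 on the minus strand.
Gfpt1 window: cgagcccctgCCACGtcgctacccg
Pgm3 window: caaagctgggCCACGtctgcgaggt

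CCACG, which lies within the hexamer above, was found in Gfpt1, Pgm3, Uap1 and Gne and in 32.8% of all promoters. CCAAT was found in Gfpt1, Gfpt2, Pgm3 and Uap1 and in 37.4% of all promoters, and TGACG, the core of the cAMP response element, in Uap1 and in 20.8%. The full ER stress elements matched none of the 7 genes. These are ERSE, in which the CCAAT pentamer is followed after 9 free bases by the pentamer CCACG (0.119% of promoters), and ERSE-II, in which ATTGG is followed after 1 free base by that same pentamer (0.0365%). The promoters of Ogt and Nagk held none of these letters. A match of letters is not a bound site, and windows this short leave out any element further away.

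Library depth ranged from 11318087 to 51802230 estimated counts, at which 3 counts correspond to 0.0556 to 0.255 CPM (the unit used below, counts scaled to the TMM-adjusted size of each library), far below any value of the 8 genes. All 8 markers of rod photoreceptors were present in every library, with a sum of 5049 CPM or more. Control replicate 2 stood apart, with summed rod markers of 41248 CPM against 5049 to 15786 CPM elsewhere. In 2-DG replicate 4 the library scaling factor was the lowest, at 0.820, and 2-DG replicate 3 held 169 CPM of summed retinal pigment epithelium markers against 1.44 to 20.0 CPM elsewhere. Results that rest on control replicate 2 or 2-DG replicate 4 are given with and without them, a choice made after the data had been seen. In edgeR's quasi-likelihood test, 0 of 21049 genes passed an adjusted p-value of 0.05, with 1526 at an unadjusted p-value under 0.05 (509 higher and 1017 lower in 2-DG), so no gene is called changed by that test. Other tools called more: DESeq2 called 284 genes and limma-voom with quality weights 1222.

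None of the 8 enzymes passed edgeR's test between control and 2-DG explants (0 of 8, against 0% of all genes tested). Transcripts of the main route, from Gfpt1 through Gnpnat1 and Pgm3 to Uap1, and those of Ogt, Nagk and Gne differed by 0.52 or less on the log2 scale in either direction. The exception in size was Gfpt2, the second amidotransferase, whose mean of 9.59 CPM in 2-DG explants stood against 41.0 CPM in control, 4.26-fold lower by the fit. Of the 8 genes, 5 had a higher and 3 a lower fitted level in 2-DG, with a median log2 fold change of 0.12 beside -0.01 over all genes tested. At an unadjusted p-value under 0.05 stood 1 of the 8 (Gfpt2, lower), where 7.25% of all genes did. No gene of the 8 had groups without overlap, where 2.93% of all genes did.

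**Figure D1:**
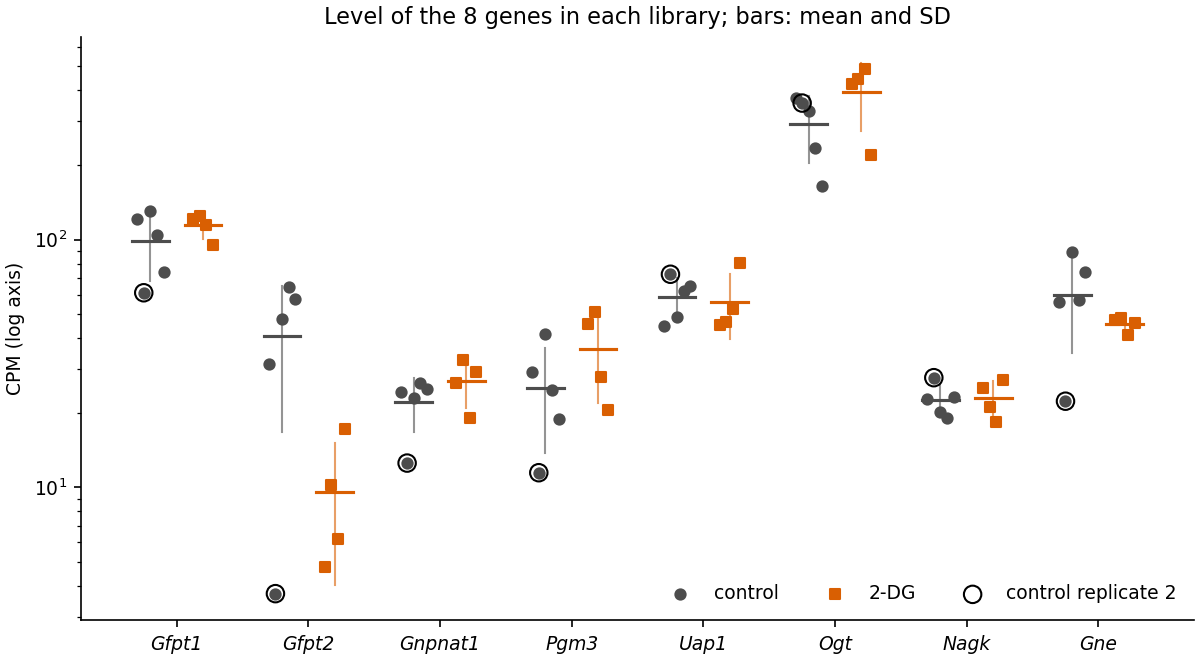
Level of each of the 8 genes in CPM on a log axis, with a circle for each of 5 control and a square for each of 4 2-DG libraries; horizontal bars are group means, vertical bars the SD, and rings mark control replicate 2. Gfpt2 has 4 controls between 31.3 and 64.3 CPM and every 2-DG library at or below 17.1 CPM, with control replicate 2 at 3.72 CPM, while the groups of the other genes overlap too, those of Gne through control replicate 2 alone.

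Gfpt1 (ENSMUSG00000029992, chr6:87042846-87092197 on GRCm38, plus strand) encodes the broadly expressed amidotransferase that feeds the pathway. It measured 121, 61.0, 131, 104 and 73.7 CPM in control replicates 1 to 5 and 122, 125, 115 and 95.5 CPM in 2-DG replicates 1 to 4. The 2-DG libraries lay within the control range and were less spread (114 ± 13.2 CPM, SD, n = 4) than the controls (98.3 ± 30.2, n = 5). The log2 fold change was 0.22 (SE 0.25, 95% interval -0.34 to 0.77, adjusted p = 0.860), an interval that reaches from 0.788-fold to 1.71-fold. Without control replicate 2, the lowest library, it was 0.08.

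Gfpt2 (ENSMUSG00000020363, chr11:49794178-49838613, plus strand) encodes the second form of the amidotransferase, known from nervous tissue. Its level was 31.3, 3.72, 47.7, 64.3 and 57.8 CPM in control replicates 1 to 5 and 4.75, 10.3, 6.21 and 17.1 CPM in 2-DG replicates 1 to 4. Control replicates 1, 3, 4 and 5 were all above the highest 2-DG library, and control replicate 2 was below the lowest, so the groups overlapped through 1 library. The counts behind the lowest values were 52 in control replicate 2 and 56 in 2-DG replicate 1. The log2 fold change was -2.09 (SE 0.68, 95% interval -3.60 to -0.58, unadjusted p = 0.0114, adjusted p = 0.563), with 4 of 4 2-DG libraries below the control mean. The difference did not pass correction over all genes. Without control replicate 2 it was -2.39 (adjusted p = 0.0703), and without control replicate 2 and 2-DG replicate 4 it was -2.83 and passed (adjusted p = 0.0297). By limma-voom with quality weights on all 9 libraries it was -2.73 and passed (adjusted p = 0.0177), and by DESeq2 it was -2.09 (adjusted p = 0.0858).

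The log2 ratio of Gfpt1 to Gfpt2 within a library, which no scaling between libraries can alter, was 1.95, 4.03, 1.46, 0.70 and 0.35 in control replicates 1 to 5 and 4.68, 3.60, 4.21 and 2.48 in 2-DG replicates 1 to 4. All 4 2-DG libraries exceeded control replicates 1, 3, 4 and 5, and control replicate 2 lay among the 2-DG values. The group means were 1.70 ± 1.45 (n = 5) and 3.74 ± 0.95 (n = 4), a difference of 2.04 (exact two-sided permutation test over 126 splits, p = 0.0476, and 0.190 after adjustment over 4 measures, where 0.00794 is the smallest p the design allows). Without control replicate 2 the difference was 2.63 (exact permutation p = 0.0286, and 0.114 after adjustment), without control replicate 2 and 2-DG replicate 4 it was 3.05 (exact permutation p = 0.0286, and 0.0571 after adjustment), and without any other library in turn it was 1.71 to 2.46 (exact permutation p = 0.0714 to 0.125). Markers of Müller glia, the main glial cell of the retina, moved in part with Gfpt2. Their sum over 8 genes was 2055, 3859, 2073, 4499 and 7241 CPM in control replicates 1 to 5 and 1200.3, 1401, 3924 and 2539.6 CPM in 2-DG replicates 1 to 4. Of the 8 markers, 3 had a higher and 5 a lower fitted level in 2-DG, and 4 were at an unadjusted p-value under 0.05, 1 higher and 3 lower, where 2.42% of all genes were higher and 4.83% lower at that level. None was at 0 in every library. Single markers differed in control replicate 2, which had the lowest Gfpt2 level. The glial sum there was above 3 of the 4 2-DG libraries, with 2154 of its 3859 CPM from Glul, whereas Sox9, a transcription factor of these cells, was at 20.9 CPM there, against 112 to 196 CPM in the other controls and at most 37.2 CPM in 2-DG. Of the other markers, Rlbp1, Aqp4, Apoe and Dkk3 lay within the range of the other controls there, as Glul did, and Slc1a3 (86.1 CPM) and Vim (193 CPM) lay below it, by less than Sox9. Sox9 and Glul were singled out after their values were seen. The part of glial content in the Gfpt2 result was not tested.

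**Figure D2:**
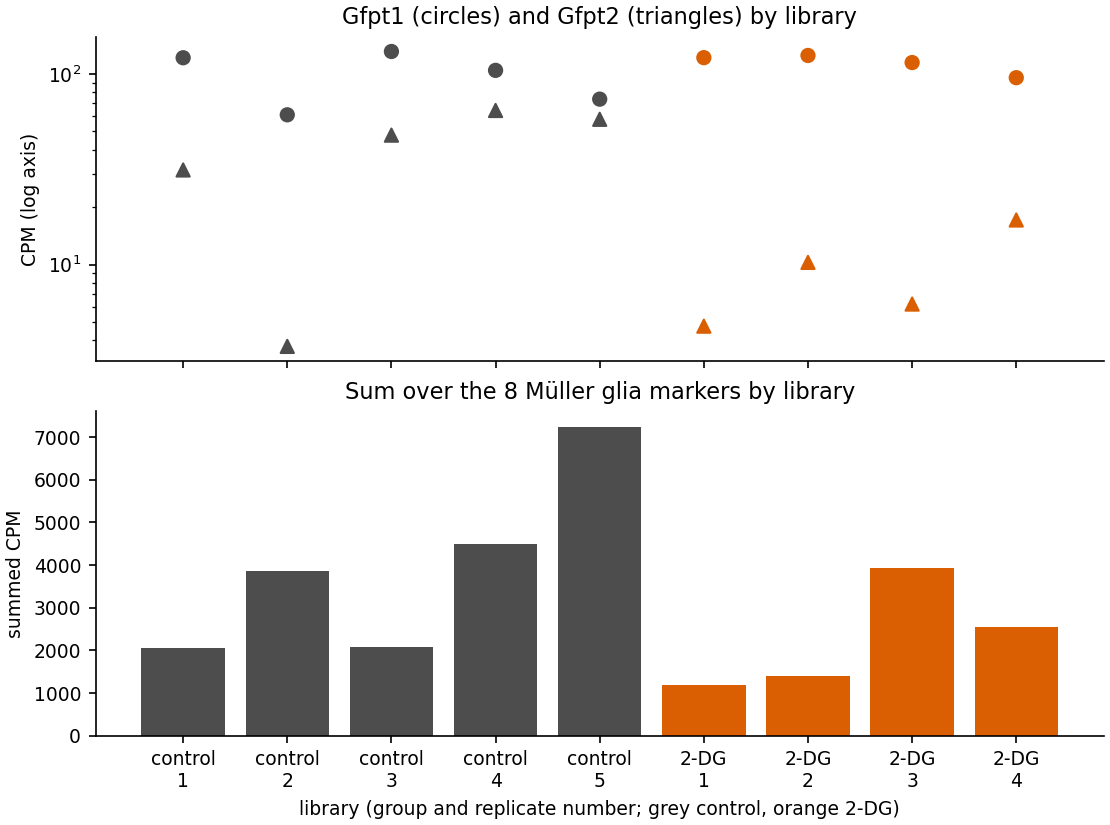
Upper panel, Gfpt1 (circles) and Gfpt2 (triangles) in CPM on a log axis for each of the 9 libraries; lower panel, the summed CPM of 8 Müller glia markers in the same libraries (grey control, orange 2-DG). Gfpt1 stays between 61.0 and 131 CPM throughout, whereas Gfpt2 is at 3.72 CPM in control replicate 2 and between 4.75 and 17.1 CPM in 2-DG libraries, and the glial sum, to which Glul contributes most in control replicate 2, is 3859 CPM there.

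Gnpnat1 (ENSMUSG00000037722, chr14:45376334-45404913, minus strand), which makes N-acetylglucosamine 6-phosphate, was at 24.2, 12.5, 23.0, 26.3 and 24.8 CPM in control and 26.3, 32.6, 19.0 and 29.3 CPM in 2-DG replicates, in the order of their numbers. Control replicate 2 was again the lowest, and the other 4 controls, at 23.0 to 26.3 CPM, lay inside the 2-DG range. In the fit it differed by 0.27 on the log2 scale (SE 0.27, 95% interval -0.32 to 0.86, adjusted p = 0.839), and it was 0.12 without control replicate 2 and 0.09 when transcript counts were summed per gene.

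Pgm3 (ENSMUSG00000056131, chr9:86554377-86571842, minus strand), the mutase of the pathway, had the highest log2 fold change of the 8 genes. It was at 29.2, 11.5, 41.6, 24.6 and 18.8 CPM in control and 45.6, 50.8, 27.8 and 20.5 CPM in 2-DG replicates. The 2-DG replicates 1 and 2 were above every control, and 2-DG replicates 3 and 4 were within the control range. The log2 fold change of 0.52 (SE 0.39, 95% interval -0.33 to 1.38, adjusted p = 0.797) did not exceed the spread between libraries. Leaving out each library in turn gave 0.32 to 0.78.

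Uap1 (ENSMUSG00000026670, chr1:170141938-170174957, minus strand) encodes the enzyme that completes UDP-GlcNAc. It was at 44.7, 72.5, 48.9, 61.9 and 64.9 CPM in control and 45.2, 46.7, 52.3 and 80.3 CPM in 2-DG replicates. Here control replicate 2 was the highest control and 2-DG replicate 4 the highest library, whereas for Gfpt1 and Pgm3 each was the lowest of its group. On the log2 scale 2-DG differed from control by -0.06 (SE 0.24, 95% interval -0.59 to 0.47, adjusted p = 0.960), and it took either sign when single libraries were left out (-0.28 to 0.04). The interval spans 0.665-fold to 1.38-fold.

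The 3 genes known as XBP1 targets (Gfpt1, Gnpnat1, Pgm3) had log2 fold changes of 0.22, 0.27 and 0.52, and none was at an unadjusted p-value under 0.05. For comparison, Xbp1 and 7 of its known targets outside the pathway were fitted in the same model. These 8 genes were chosen with earlier results of these data known, so their direction is not independent evidence. All 8 had a higher fitted level in 2-DG, with a median log2 fold change of 0.89. At an unadjusted p-value under 0.05 stood 6 of the 8, where 2.42% of all genes were higher at that level, and none passed adjustment in this fit. In 5 of the 8 the 2-DG libraries were all above the controls, where 1.52% of all genes were.

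Xbp1 itself was at 113, 91.1, 119.9, 111 and 79.7 CPM in control and 147, 142, 122 and 133 CPM in 2-DG replicates, with no overlap. Its log2 fold change was 0.40 (SE 0.19, unadjusted p = 0.0584, adjusted p = 0.698). The 3 smallest p-values among its targets belonged to Pdia4, a disulfide isomerase, Hyou1, an ER chaperone, and Sdf2l1, a partner of ER chaperones. Pdia4 was 3.24-fold (95% interval 2.34 to 4.50, adjusted p = 0.181), Hyou1 2.27-fold (1.70 to 3.03, adjusted p = 0.300) and Sdf2l1 5.82-fold (2.97 to 11.4, adjusted p = 0.380) the control level. Beside these, the intervals were 0.788 to 1.71 for Gfpt1, 0.803 to 1.82 for Gnpnat1 and 0.796 to 2.60 for Pgm3. By DESeq2 all 3 passed (adjusted p = 1.13e-10 for Pdia4, 8.34e-09 for Hyou1 and 7.37e-05 for Sdf2l1), as they did by limma-voom (0.00208, 0.00284 and 0.00563) and without control replicate 2 and 2-DG replicate 4 (0.0293, 0.0297 and 0.0297). Pdia4 also passed without control replicate 2 (0.0386), and Pdia4 and Sdf2l1 without 2-DG replicate 4 (both 0.0441). In edgeR's fit on all 9 libraries, the interval of Pdia4 lay above those of Gfpt1 and Gnpnat1 and met that of Pgm3, and a difference between these genes was not tested.

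**Figure D3:**
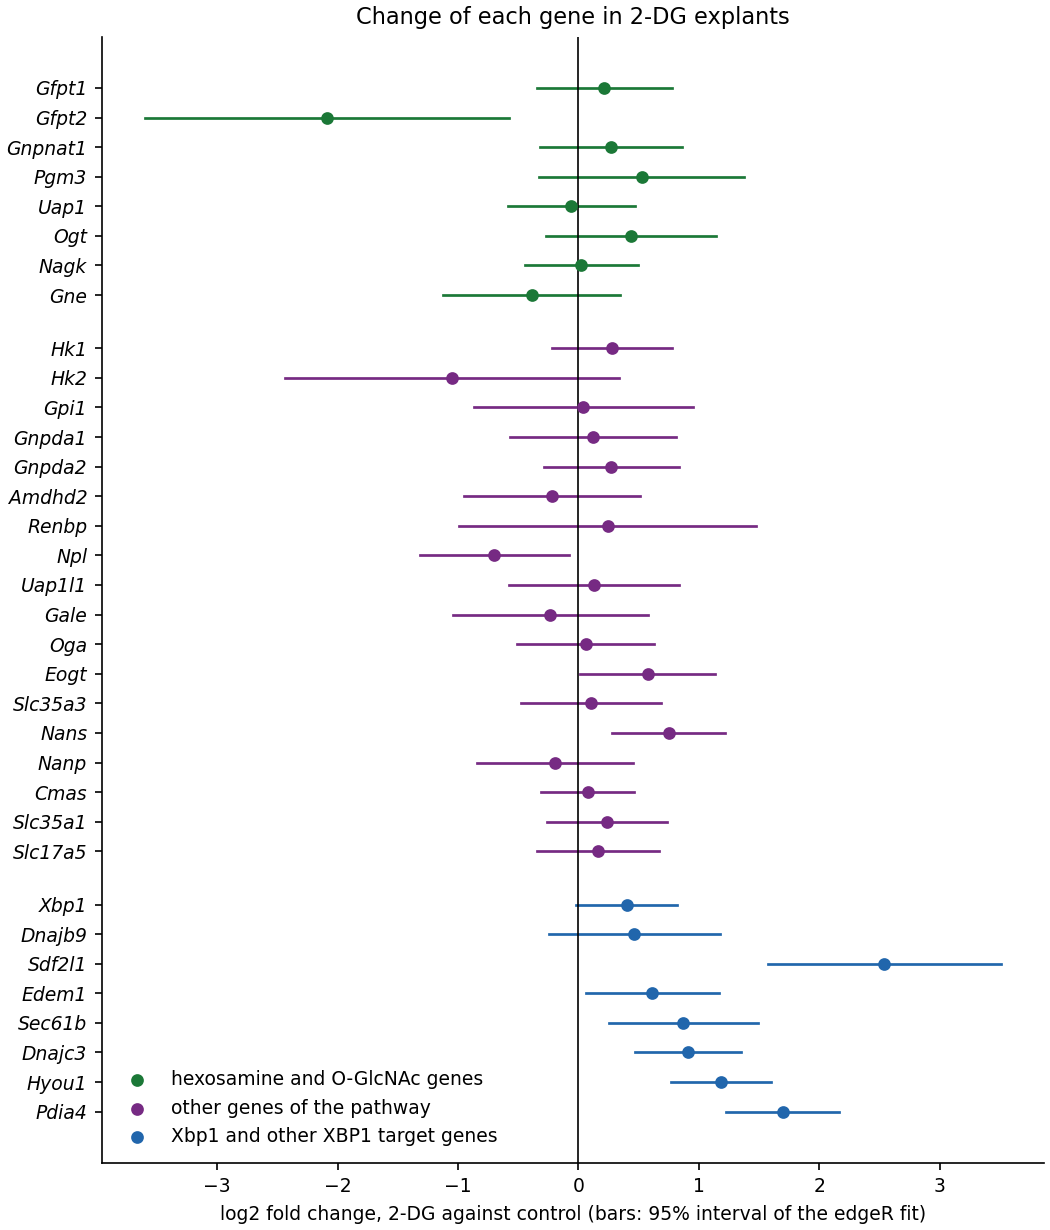
Log2 fold change of 2-DG against control for each gene, with bars for the 95% interval of the edgeR fit over 9 libraries, for the 8 enzymes (green), 18 other pathway genes (purple) and Xbp1 with 7 of its known targets (blue). Among the green genes the interval of Gfpt2 alone, from -3.60 to -0.58, leaves out 0, and the blue genes all lie to the right of 0 with a median of 0.89.

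Ogt (ENSMUSG00000034160, chrX:101640060-101684351, plus strand) encodes the transferase that adds O-GlcNAc. It was at 371, 356, 330.4, 235 and 165 CPM in control and 424, 446, 489 and 219 CPM in 2-DG replicates. The 2-DG replicates 1 to 3 were above every control, and 2-DG replicate 4 was below 4 of 5 controls. The log2 fold change was 0.44 (SE 0.32, 95% interval -0.27 to 1.14, adjusted p = 0.793). Without control replicate 2 and 2-DG replicate 4 it was 0.72, with an unadjusted p-value of 0.0305 and an adjusted p-value of 0.265, and without control replicate 5 it was 0.28. Oga, the hydrolase that removes the sugar (listed as Mgea5 in the annotation), was at 383, 233, 381, 259.7 and 216 CPM in control and 336, 366, 286 and 240.3 CPM in 2-DG replicates. Its log2 fold change of 0.06 (SE 0.26, 95% interval -0.51 to 0.63, adjusted p = 0.964) turned to -0.01 under upper quartile scaling.

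The log2 ratio of Ogt to Oga within a library was -0.04, 0.61, -0.20, -0.15 and -0.38 in control and 0.34, 0.28, 0.78 and -0.14 in 2-DG replicates. The ratio was below 0 in 4 of 5 controls and above 0 in 3 of 4 2-DG libraries, with control replicate 2 and 2-DG replicate 4 as the exceptions. The means were -0.03 ± 0.38 (n = 5) and 0.32 ± 0.37 (n = 4), a difference of 0.35 that was within the spread (exact permutation test, p = 0.206, adjusted p = 0.413). Without those 2 libraries the groups separated fully and the difference was 0.66 (exact permutation p = 0.0286, the smallest p that 4 against 3 libraries allow, adjusted p = 0.0571). Without 2-DG replicate 3 the difference was 0.20 (exact permutation p = 0.446). Leaving out both libraries was chosen after the data had been seen, and leaving out the libraries that go against a difference makes it larger.

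Ogt and Oga transcripts are known to be held in the nucleus through retained introns, and the annotation lists such transcripts for both. All 3 retained-intron transcripts of Ogt (Ogt-204, Ogt-206 and Ogt-207) read through the 5′ splice site of intron 4 of 21, at chrX:101652209-101655623 on the plus strand. Of the 2 in Oga, Oga-205 holds the whole of intron 3 of 15, at chr19:45777018-45778586 on the minus strand, and Oga-204 reads into an exon from intron 12, at chr19:45758435-45761103. The junctions that these transcripts leave unspliced are shown with exon in lower case and intron in capitals.
Ogt intron 4, 5′ splice site: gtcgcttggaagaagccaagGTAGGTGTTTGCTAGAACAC
Oga intron 3, 5′ splice site: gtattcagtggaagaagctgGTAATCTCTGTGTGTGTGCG
Oga intron 3, 3′ splice site: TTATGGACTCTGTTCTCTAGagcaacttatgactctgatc
Oga intron 12, 3′ splice site: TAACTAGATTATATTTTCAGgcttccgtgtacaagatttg

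The share of Ogt transcript counts in retained-intron transcripts was 20.9, 3.78, 21.1, 15.5 and 8.39% in control and 16.6, 15.2, 21.3 and 7.55% in 2-DG replicates, with 95% Wilson half-widths of 0.485 to 1.25 points that cover counting error only. Control replicate 2 held the least, and the groups overlapped over nearly their whole range. The means were 13.95 ± 7.70% and 15.2 ± 5.72% (exact permutation test, p = 0.825), and the difference of 1.22 points turned negative when control replicate 2, control replicate 5 or 2-DG replicate 3 was left out. For Oga the share was 6.50, 44.5, 7.52, 8.96 and 27.5% in control and 8.41, 9.42, 6.65 and 16.9% in 2-DG replicates (a difference of -8.66 points, exact permutation test, p = 0.397, adjusted p = 0.529). Without control replicate 2 that difference was -2.28 points (exact permutation test, p = 0.829). Libraries with a low Ogt share, control replicates 2 and 5 and 2-DG replicate 4, were the 3 with the highest Oga share. Over all genes the share in retained-intron transcripts was 3.58 to 6.75%, lowest in 2-DG replicate 4 and control replicate 5 and at 6.68% in control replicate 2. Division of reads between overlapping transcripts is an estimate whose error is not in the deposited counts. The libraries were made from total RNA, so RNA not yet spliced and retained-intron transcripts cannot be told apart in these shares.

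**Figure D4:**
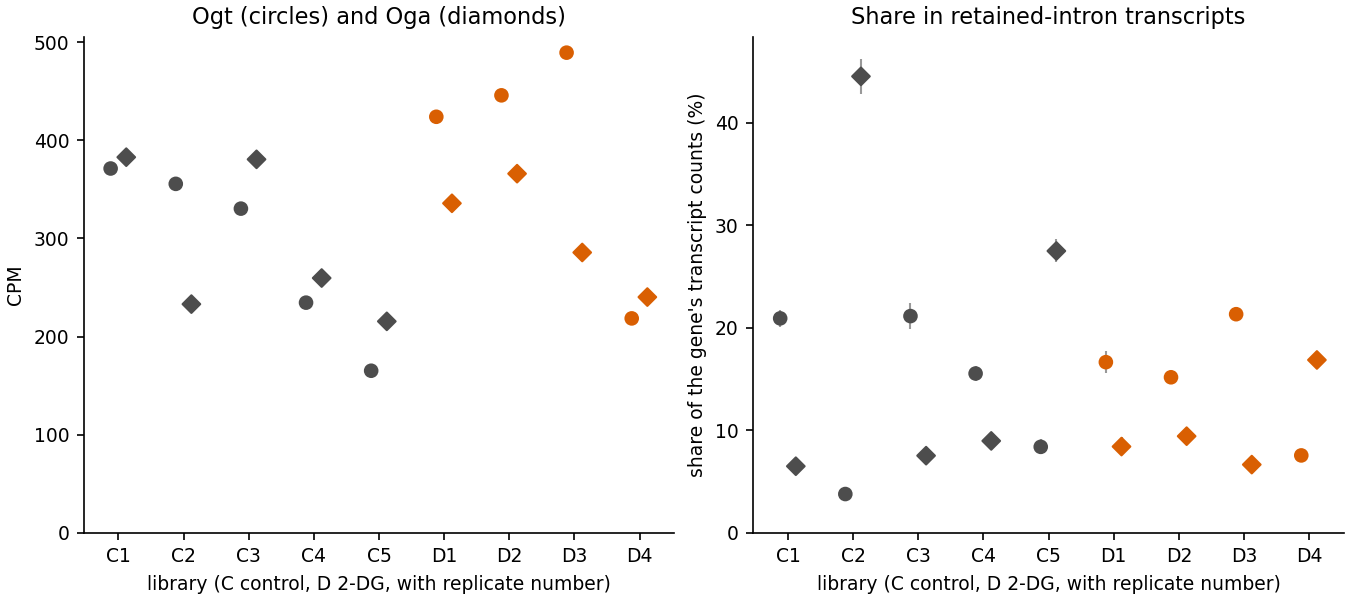
Left, Ogt (circles) and Oga (diamonds) in CPM in each library; right, the percent of each gene's transcript counts in retained-intron transcripts, with 95% Wilson intervals as thin bars where they exceed the symbol (grey control C1 to C5, orange 2-DG D1 to D4). The log2 ratio of Ogt to Oga is above 0 in control replicate 2 and in 2-DG replicates 1 to 3, and control replicate 2 has 3.78% of Ogt and 44.5% of Oga counts in such transcripts.

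Nagk (ENSMUSG00000034744, chr6:83794982-83804018, plus strand), the kinase of GlcNAc salvage, was at 22.6, 27.7, 20.2, 19.1 and 23.2 CPM in control and 25.2, 21.1, 18.4 and 27.1 CPM in 2-DG replicates. The group means were 22.6 ± 3.33 and 22.9 ± 3.91 CPM, and the log2 fold change of 0.02 (SE 0.21, 95% interval -0.45 to 0.49, adjusted p = 0.986) turned to -0.07 under upper quartile scaling. The interval holds changes from 0.734-fold to 1.41-fold.

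Gne (ENSMUSG00000028479, chr4:44034075-44084177, minus strand), the entry enzyme of sialic acid synthesis, was at 56.0, 22.3, 89.4, 57.2 and 74.3 CPM in control and 47.3, 48.4, 41.0 and 46.1 CPM in 2-DG replicates. All 4 2-DG libraries were below control replicates 1, 3, 4 and 5 and above control replicate 2, so the groups overlapped through 1 library. Its fitted log2 fold change was -0.39 (SE 0.33, 95% interval -1.12 to 0.35, adjusted p = 0.822). Without control replicate 2 it was -0.60 (unadjusted p = 0.0125, adjusted p = 0.315), and it was -0.20 without control replicate 3 (unadjusted p = 0.555) and -0.25 from summed transcript counts (unadjusted p = 0.337). The 2-DG values were spread by an SD of 3.25 CPM against 25.1 CPM in control.

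Levels of different genes were compared as CPM per kilobase of exon. In control, Ogt led with 36.2 ± 10.98, followed by Uap1 with 14.6 ± 2.87, Gfpt1 with 9.76 ± 3.00, Gne with 9.41 ± 3.94, Gfpt2 with 7.33 ± 4.34, Pgm3 with 5.60 ± 2.53, Nagk with 4.83 ± 0.711 and Gnpnat1 with 4.68 ± 1.17 CPM per kilobase. The control range of Ogt did not meet that of Uap1, and every later pair of neighbours in this order overlapped. In 2-DG the first 3 places were the same, and Gfpt2 was in place 8 with 1.72 ± 0.991 CPM per kilobase. Pgm3 was in place 4 with 8.06 ± 3.20 CPM per kilobase.

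At the transcript level, 52 of the 64 listed transcripts of the 8 genes were tested and none passed (smallest adjusted p = 0.9996). At an unadjusted p-value under 0.05 stood 6 of the 52, where 3.45% of all 62900 transcripts did. Of these 6, 2 were higher, where 1.17% of all transcripts were, and 4 lower, where 2.28% were. Both transcripts of Gfpt2 were among the lower ones, the coding Gfpt2-201 with a log2 fold change of -2.10 (SE 0.75, unadjusted p = 0.0187 in edgeR's quasi-likelihood test) and the retained-intron Gfpt2-202 with -2.17 (SE 0.69, unadjusted p = 0.0102). Reads divided between them share their source, so they are not separate evidence. Pgm3-201, a coding transcript, was at 18.5, 11.3, 9.11, 14.3 and 9.57 CPM in control and 19.5, 19.8, 21.9 and 19.7 CPM in 2-DG replicates (log2 fold change 0.69, SE 0.29, unadjusted p = 0.0384 in edgeR's test). The others were the coding Nagk-203 (1.19, SE 0.52) and Gne-205 (-1.44, SE 0.64) and the retained-intron Nagk-204 (-1.06, SE 0.47). The means of these 3 transcripts were below 6 CPM in both groups. The main Gfpt1 transcript, Gfpt1-204, had a log2 fold change of 0.27 (SE 0.23) beside 0.22 for the gene, and that of Gnpnat1, Gnpnat1-201, had -0.10 (SE 0.24) beside 0.27.

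Of the 18 other genes of the pathway, all were tested, 13 had a higher and 5 a lower fitted level in 2-DG, and the median log2 fold change was 0.11. None passed adjustment in edgeR's test. At an unadjusted p-value under 0.05 stood 3 of the 18 (2 higher and 1 lower), against 7.25% of all genes, and the groups of these 3 did not overlap, against 2.93% of all genes. By role, this was 0 of 3 genes at the entry from glycolysis, 1 of 5 of the reverse and salvage steps, 1 of 5 of those that use or interconvert UDP-GlcNAc and 1 of 5 of the sialic acid branch after Gne.

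Nans, which makes sialic acid 9-phosphate, was at 16.3, 13.2, 14.8, 16.2 and 22.1 CPM in control and 27.8, 25.1, 27.8 and 30.3 CPM in 2-DG replicates. Every 2-DG library was above every control, with a log2 fold change of 0.75 (SE 0.21, unadjusted p = 0.00497, adjusted p = 0.524). In the opposite direction, Npl, the lyase that breaks sialic acid down, was at 4.81, 6.94, 6.64, 7.59 and 7.63 CPM in control and 3.82, 4.51, 3.91 and 4.32 CPM in 2-DG replicates (log2 fold change -0.70, SE 0.28, adjusted p = 0.653). Eogt, an ER transferase that adds O-GlcNAc to secreted proteins, was at 24.2, 13.2, 33.2, 26.3 and 25.4 CPM in control and 33.9, 35.3, 37.6 and 39.0 CPM in 2-DG replicates (log2 fold change 0.58, SE 0.25, adjusted p = 0.689). Eogt was at 0.36 (unadjusted p = 0.174) when transcript counts were summed per gene. The count of 3 was 1 when control replicate 4, control replicate 5, 2-DG replicate 1 or 2-DG replicate 3 was left out. In those settings, in that order, 921 of 19891, 1138 of 19891, 1044 of 21807 and 1336 of 20993 genes were at an unadjusted p-value under 0.05 in edgeR's test. With all libraries it was 1526 of 21049. By DESeq2 and by limma-voom, Nans passed (adjusted p = 0.0214 and 0.0253).

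The protein-coding genes whose pattern over the 9 libraries was most like that of Gfpt1, by the root mean square difference of log2 CPM centred on each gene's mean, included March6 (0.0413) and Fbxo38 (0.0523), where the median over 16013 genes was 0.626. For Ogt they were Dnajc27 (0.101), Aplp2 (0.119) and Npepps (0.131), with a median of 0.703. None of these 5 genes was at an unadjusted p-value under 0.05 between the groups, and their log2 fold changes were 0.19 to 0.45.

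**Figure D5:**
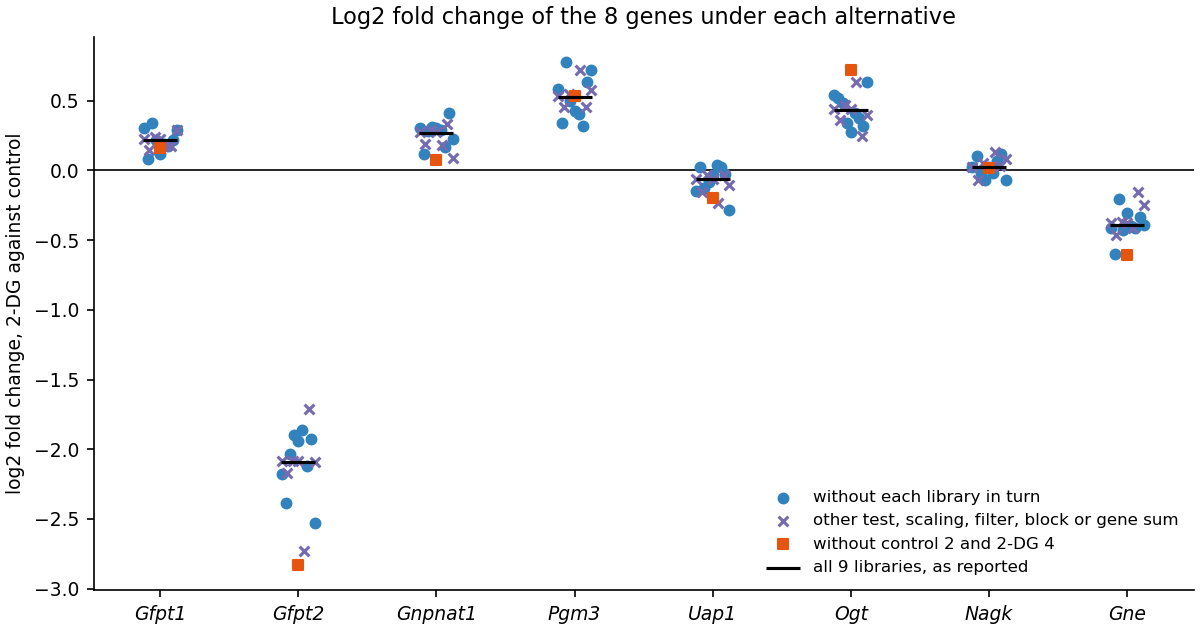
Log2 fold change of 2-DG against control for the 8 genes in the reported fit (black bars), without each library in turn (blue circles), under other tests, scalings, filters, a replicate block or gene sums (purple crosses) and without control replicate 2 and 2-DG replicate 4 (red squares). Gfpt2 stays between -2.83 and -1.71, Gfpt1, Gnpnat1, Pgm3 and Ogt stay above 0, Gne stays below 0, and Uap1 and Nagk lie on both sides of 0.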

How the data were processed

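RNA-seq libraries of 5 control and 4 2-DG retinal explants were analysed. The authors deposited estimated counts per Ensembl gene and per transcript, not scaled between libraries, and CPM on a scaled library size (a signal whose scaling method is not given in the sources used here) for 12568 genes, all 8 enzymes among them. The submitters' processing notes name kallisto and GRCm38 without role or version, and how transcript estimates were brought to genes is not stated. A further deposited table holds the authors' own fold changes and p-values of 2-DG against control and was not used. The deposited CPM were 0.972 to 1.107 times the CPM computed here and entered no test.

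Rounding the estimated counts altered no library total by more than 0.00377%. Genes were kept by filterByExpr, scaled by TMM and tested with edgeR 4.0.16 in R 4.3.3 (glmQLFit with legacy=TRUE and robust=FALSE, glmQLFTest, group as the only term), with Benjamini-Hochberg adjustment over 21049 genes or 62900 transcripts and a threshold of 0.05. The SE is the absolute log2 fold change divided by the square root of F. Within-library ratios and shares were compared between groups by their means, with a two-sided exact permutation test. Alternatives were DESeq2 1.42.0, limma 3.58.1 (voom with quality weights), other scalings, no filter, a replicate block, gene sums of transcripts and each library left out. Groups and replicate numbers come from the sample titles, and 0 table columns were without a sample. P-values measure the spread between these libraries.

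Symbols came from the gene name table (99.4% of IDs) or RefSeq synonyms, coordinates and transcript types from GENCODE M21 (GRCm38), and promoters from RefSeq (GRCm38.p6). Reads of Gfpt1 and Gfpt2, which are paralogs, were taken as the authors assigned them. The members, lists and tests were chosen with earlier results of these data known. The rule for named genes took all 8 members, Oga and up to 4 other pathway genes at an unadjusted p-value under 0.05, Xbp1 and up to 3 of its targets by smallest p, and for Gfpt1 and Ogt the 3 genes of most similar pattern, of which 1 is not reported here. No marker list was compared between groups for its own sake. Summed markers of vessels were 277 to 2511 CPM and those of microglia 7.37 to 47.5 CPM per library.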

Additional observations from a re-analysis of the deposited data

Results flagged for a closer look

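Of 26 groups of values checked for a library far from the rest of its group, 2 had such a library, where chance gives about 1 in 20. Both were control replicate 2. Its log2 CPM of Gfpt2 was 1.90 (3.72 CPM), where the nearest other control was at 4.97 and the highest at 6.01. Its log2 CPM of Gnpnat1 was 3.65 (12.5 CPM), where the nearest other control was at 4.52 and the highest at 4.72. The same library had 41248 CPM of summed rod markers against 5049 to 15786 CPM in the other 8 libraries. The part of rod content in either value was not tested.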

How the results depend on the processing

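For the counts, the within-library measures and the 8 enzymes, 250 values over all alternatives were classed as the same. For a count this meant a move of no more than 1.5 times, and for any other value the same direction and side of the threshold. Of the rest, 18 counts moved by more than 1.5 times, 11 values changed sign and 2 passed the threshold that had not. Of all genes, 284 passed by DESeq2, 1222 by limma-voom with quality weights, 0 to 16 when each library was left out in turn (16 without control replicate 2, 2 without 2-DG replicate 4) and 177 without control replicate 2 and 2-DG replicate 4, the last chosen after the data had been seen. Of the 8 enzymes, 1 (Gfpt2) passed by limma-voom (-2.73) and 1 (Gfpt2) without those 2 libraries (-2.83). The count of the 8 at an unadjusted p-value under 0.05 was 3 by limma-voom, 1 to 2 without each library in turn (Gne joined without control replicate 2) and 3 without both libraries. Over all genes, 5474 of 21049 were at that level by limma-voom, 1855 of 20632 without control replicate 2 and 3340 of 21331 without both libraries. Without each library in turn the count over all genes was 921 to 2721. For the 18 other pathway genes the count at that level was 5 by limma-voom, where 5474 of 21049 genes were. It was 1 to 4 without each library in turn, where 921 to 2721 of all genes were. Of transcripts, 144 passed by DESeq2 and 10 by limma-voom. The cause of these differences was not tested.

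The difference in the Ogt retained-intron share ranged from -1.32 to 3.76 points without each library in turn and was -1.32 without control replicate 2, -0.17 without control replicate 5 and -0.83 without 2-DG replicate 3. Among the 8 enzymes, the log2 fold changes that changed sign were those of Uap1 (-0.28 to 0.038 without each library in turn, positive without control replicate 2 at 0.025, 2-DG replicate 1 at 0.038 and 2-DG replicate 2 at 0.021) and of Nagk (-0.068 to 0.12 without each library in turn, negative without control replicate 3 at -0.017, control replicate 4 at -0.068, 2-DG replicate 1 at -0.016 and 2-DG replicate 4 at -0.067). Outside the 8, that of Oga changed sign under upper quartile scaling (-0.011), with the replicate block (-0.018) and without control replicate 2 (-0.014), 4 (-0.0057) or 5 (-0.043) or 2-DG replicate 2 (-0.033). The report gives the settings in which Nans, Pdia4, Hyou1 and Sdf2l1 passed. Under upper quartile scaling Nagk was at -0.068, the median of all genes moved from -0.01 to -0.09, and genes at an unadjusted p-value under 0.05 were 321 higher and 1278 lower, beside 509 and 1017.

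The groups share replicate numbers 1 to 4. Deviations from the group means of same-numbered libraries correlated across genes at 0.451, -0.155, 0.102 and 0.205, not all above 0.1, so the numbers were not taken to pair the libraries. With the replicate block, 0 of the 8 enzymes were at an unadjusted p-value under 0.05, Gfpt2 was at -1.71 (unadjusted p = 0.0509 in edgeR's test), and 1351 genes were at that level (682 higher and 669 lower). Not every library correlated best with its own number.

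Gfpt2 rested on 52 and 56 counts in its lowest libraries. Shares in retained-intron transcripts carry an error from dividing reads that the deposited counts do not hold.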
